A study of Homo sapiens and Mus musculus with 16 samples.

Results

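Axon guidance ligands and receptors were examined as a gene set in P-bodies and cytoplasm of human neurons. Members were the gene symbols of the netrin (NTN), UNC5, SLIT, ROBO, ephrin (EFN), EPH, class 3 to class 7 semaphorin (SEMA), neuropilin (NRP) and plexin (PLXN) families, together with DCC, NEO1 and PRTG. The human table held 70 such genes among 22286. The set was put forward for its P-body to cytoplasm ratio in neurons, so that ratio is described here and not tested. UNC50, which codes for a trafficking protein of the Golgi, matched the spelling of the UNC5 family. It was kept in the counts, which cover 69 guidance genes without it.

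P-bodies are cytoplasmic condensates of RNA and protein that hold transcripts away from ribosomes. They were sorted as fluorescent GFP-LSM14A particles from lysates cleared of nuclei, and their RNA was sequenced beside an aliquot of the cytoplasm taken before the sort. Per the study's methods, this cytoplasmic fraction was a resuspended pellet of the spun lysate. It therefore still held the P-bodies and lacked what stayed in the supernatant. Neurons at day 20 and liver bud progenitors were both derived from UCLA4, an embryonic stem cell line with EGFP-LSM14A at the AAVS1 locus, and were sequenced as polyA RNA. HEK293T, a human embryonic kidney line with lentiviral EGFP-LSM14A under the EF1a promoter, was sequenced as total RNA with the Snap seq protocol, so its levels were never set against those of the other cells. The neurons were grown from neural progenitors in a medium with cAMP and vitamin C. Each group, a cell type and a fraction, had 2 libraries. All the cells therefore carried the tagged LSM14A, and the stem cell derivatives stand for 1 parental line.

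A growing axon reads guidance cues through receptors on its tip, the growth cone. Netrins act through DCC and NEO1 and repel through UNC5 receptors, SLITs repel through ROBO receptors, membrane-bound ephrins signal to EPH receptor tyrosine kinases, and semaphorins signal through plexins, with neuropilins as co-receptors for most class 3 semaphorins. Many of these genes are also used outside the nervous system in cell migration, vessel growth and epithelial patterning.

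Total counts lay between 6368953 and 17972284 per library, so that 3 counts corresponded to 0.167 to 0.471 CPM (counts scaled to a common library size). Members took 0.834% to 0.848% of the counts in the 4 neuron libraries. The 11 neuron markers summed to 9968 to 9975 CPM in neuron P-bodies and 12271 to 12873 CPM in neuron cytoplasm, against 274 to 297 CPM in liver bud progenitors. In the neuron cultures, 8 of 8 neural progenitor markers also had counts in every library, and their sum was 3728 to 3862 CPM in P-bodies against 1737 to 1839 CPM in cytoplasm. The same list summed to 2874 to 2880 CPM in P-bodies and 2924 to 2942 CPM in cytoplasm of liver bud progenitors. Its sum was therefore not particular to the neuron cultures, although single genes of the list differed. PAX6, NES, VIM and HES5 had higher CPM in neurons than in liver bud progenitors in both fractions, and the others only in P-bodies. PAX6 was at 413 and 432 CPM in neuron P-bodies and at 2.73 and 0.974 CPM in those of liver bud progenitors. Markers of glia summed to 68.5 to 121 CPM and those of neural crest and mesenchyme to 41.3 to 105 CPM in the neuron libraries, with TWIST1 at 0 in all of them. In liver bud progenitors the markers of endoderm and liver summed to 471 to 483 CPM in cytoplasm and 212 to 224 CPM in P-bodies. In the first cytoplasm library APOB was at 310 CPM, HNF4A at 40.0 CPM, AFP at 8.16 CPM and ALB at 0. The pluripotency markers summed to 1239 to 1257 CPM in cytoplasm, with LIN28A at 657 CPM in the first library. The replicates of neuron P-bodies had a Spearman correlation of 0.915 across genes, against 0.962 to 0.969 in the other groups. Below, CPM are scaled by the TMM factors of the libraries compared, ± is a standard error (SE) beside log2 values, and a gene is called at a Benjamini-Hochberg adjusted p under 0.05 in edgeR's quasi-likelihood test.

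In neurons, most guidance transcripts were at lower levels in P-bodies than in cytoplasm, and a smaller group led by PRTG and SEMA3D was far higher in P-bodies. Of the 70 members, 11 passed the threshold as higher in P-bodies and 37 as lower, while 22 did not pass. Among all 22093 genes tested, 14.6% were called higher and 14.1% lower, and nothing is read from the members' counts because this contrast chose the set. Their median log2 (FC (P-body/cytoplasm)) was -0.61, beside 0.19 over all genes tested. A mean of 10 CPM or more was reached by 52 members, for which log2 changes ranged from -1.64 to 3.44 with a median of -0.61. Over all genes at that level the median was -0.19, with 27% called higher and 33% lower, where the members had 10 and 33 of 52. Of these, 6 were higher by at least 1 log2 unit with P-body and cytoplasm libraries that did not overlap, and 17 were lower by the same rule. Over all 8328 genes at that level, 16.5% met the rule for higher and 12.9% for lower. The other 18 members were below 10 CPM in neurons, so a mean level up to 9.57 CPM stood behind each of them.

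**Figure D1:**
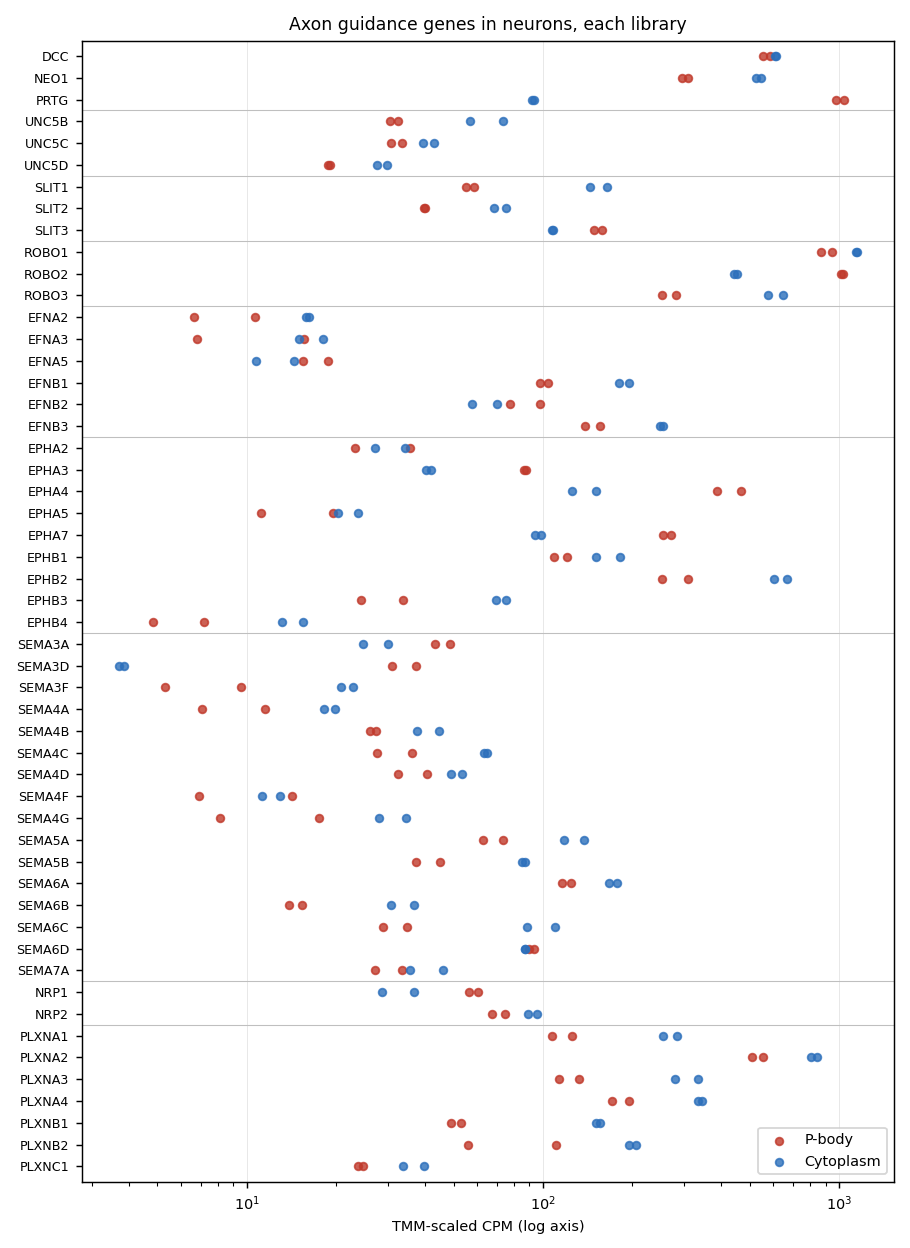
TMM-scaled CPM (log axis) of the 52 members with a mean of at least 10 CPM in neurons, with 1 point for each P-body library (red) and cytoplasm library (blue), grouped by family. The red points of PRTG, at 973 and 1037, lie farthest to the right of their blue points, at 93.1 and 91.7, and those of the plexins lie to the left of theirs.

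Genes of the DCC family went separate ways. PRTG (protogenin, chr15:55611544-55743152 in hg38, minus strand), an immunoglobulin-superfamily protein of early neuroepithelium, had 973 and 1037 CPM in P-bodies and 93.1 and 91.7 CPM in cytoplasm. That was a 10.9-fold difference, a log2 (FC (P-body/cytoplasm)) of 3.44 ± 0.09, and the P-body libraries lay far above the cytoplasm libraries. DCC, the main attractive netrin receptor, had 584 and 554 CPM in P-bodies and 610 and 613 CPM in cytoplasm (-0.10 ± 0.08). The fractions thus differed little for DCC, although the P-body libraries were the lower pair. NEO1 (neogenin), a receptor for netrins and for repulsive guidance molecules, had 310 and 296 CPM in P-bodies and 525 and 545 CPM in cytoplasm (-0.82 ± 0.08), so both P-body libraries were lower. Of the 8 neural progenitor markers, SOX2, PAX6, HES1 and the cell cycle genes MKI67 and TOP2A had higher CPM in both neuron P-body libraries than in neuron cytoplasm. NES and HES5 had lower CPM there and VIM overlapped. Most of the neuron sums given above came from MKI67, with 1872 and 2035 CPM in P-bodies, and TOP2A, with 826 and 898 CPM. The part of progenitor cells in the PRTG result was not tested.

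Of the repulsive netrin receptors at 10 CPM or more, UNC5B and UNC5D were called lower in P-bodies. UNC5B had 30.4 and 32.5 CPM in P-bodies and 73.4 and 56.7 CPM in cytoplasm (-1.05 ± 0.17). UNC5D differed by less (-0.60 ± 0.21), and its call ended with DESeq2, RLE factors, library size only and filterByExpr and without either cytoplasm library. UNC5C was not called (-0.36 ± 0.17). The netrins themselves, NTN1 and NTN4, were both below 10 CPM.

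SLIT and ROBO genes included members on both sides. ROBO2 (chr3:75906695-77649964, plus strand) had 1034 and 1015 CPM in P-bodies and 454 and 442 CPM in cytoplasm (1.19 ± 0.08). ROBO1 (chr3:78597239-79767998, minus strand), which lies next to it on chromosome 3, had 948 and 871 CPM in P-bodies and 1141 and 1153 CPM in cytoplasm (-0.33 ± 0.07). ROBO3 (chr11:124865432-124881471, plus strand), a divergent member known from commissural axons, had 282 and 252 CPM in P-bodies and 648 and 576 CPM in cytoplasm (-1.20 ± 0.09). The 3 receptors therefore ran from higher to lower in P-bodies, and in none did the fractions overlap. The call of ROBO1 ended with library size only (-0.17).

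Among the ligands, SLIT1 (chr10:96998038-97185959, minus strand) had 58.4 and 55.0 CPM in P-bodies and 165 and 144 CPM in cytoplasm (-1.45 ± 0.12). SLIT2 had 39.6 and 40.2 CPM in P-bodies and 75.3 and 68.5 CPM in cytoplasm (-0.85 ± 0.14). SLIT3 was the reverse, with 159 and 148 CPM in P-bodies and 108 and 107 CPM in cytoplasm (0.51 ± 0.11). All of these SLIT libraries separated by fraction, SLIT3 upward and the other two downward.

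The base composition of the ROBO messages is shown where their proteins are nearly the same. The stretch of 20 codons in 1 exon most alike between the 3 receptors is given from the canonical transcripts of GENCODE 44. It runs 5′ to 3′ on the coding strand, with G or C at the third codon position in capitals.
ROBO2: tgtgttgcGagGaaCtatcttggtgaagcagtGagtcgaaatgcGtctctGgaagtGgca
ROBO1: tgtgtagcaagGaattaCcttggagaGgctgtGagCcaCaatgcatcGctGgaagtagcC
ROBO3: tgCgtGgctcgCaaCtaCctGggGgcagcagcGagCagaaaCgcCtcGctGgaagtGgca
These lie in exon 2 of ROBO2 (chr3:77098280-77098339, plus strand), exon 4 of ROBO1 (chr3:78938602-78938661, minus strand) and exon 2 of ROBO3 (chr11:124869068-124869127, plus strand). ROBO1 codes for 19 and ROBO3 for 18 of the 20 residues found in ROBO2. Of the 20 positions marked in this way, 7 were G or C in ROBO2, 9 in ROBO1 and 14 in ROBO3, in the same order as the log2 changes from highest to lowest. The longest annotated transcripts held 34.7% GC for ROBO2, 47.1% for ROBO1 and 62.4% for ROBO3. Over the whole coding sequence, G or C at the third position made up 42.0% in ROBO2, 42.4% in ROBO1 and 68.9% in ROBO3. The 3′ UTR held 34.2%, 32.5% and 47.3% GC in the same order. By the third position of the whole coding sequence and by the 3′ UTR, ROBO3 stood apart, while ROBO2 and ROBO1 hardly differed. By GC content of the longest transcript, ROBO1 lay between the other receptors.

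Among EPH receptors in neurons, 3 of the 9 EPHA genes were called higher and 1 lower, and 5 of the 5 EPHB genes were called lower. Of all genes tested in neurons, 14.6% were called higher and 14.1% lower, and nothing is read from these family counts. The call of EPHB4 ended without cytoplasm library 1 (-1.15) or 2 (-1.38), and that of EPHB1 without cytoplasm library 1 (-0.41). EPHA receptors chiefly bind the GPI-anchored EFNA ligands and EPHB receptors the transmembrane EFNB ligands. The stretch of 20 codons most alike between 6 of these receptors lies in the catalytic part of the kinase domain and is shown with the same capitals.
EPHA4: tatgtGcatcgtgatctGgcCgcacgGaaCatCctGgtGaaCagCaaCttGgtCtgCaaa
EPHA3: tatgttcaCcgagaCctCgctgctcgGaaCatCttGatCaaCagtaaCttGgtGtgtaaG
EPHA7: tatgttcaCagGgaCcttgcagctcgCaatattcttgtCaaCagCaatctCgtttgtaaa
EPHB1: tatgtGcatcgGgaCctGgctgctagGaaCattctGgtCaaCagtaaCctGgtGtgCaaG
EPHB2: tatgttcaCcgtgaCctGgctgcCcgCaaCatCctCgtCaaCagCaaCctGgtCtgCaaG
EPHB3: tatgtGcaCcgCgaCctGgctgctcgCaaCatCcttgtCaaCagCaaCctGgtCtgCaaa
They come from exon 13 of EPHA4 (chr2:221436462-221436521, minus strand), EPHA3 (chr3:89431237-89431296, plus strand) and EPHA7 (chr6:93255891-93255950, minus strand), and from exon 12 of EPHB1 (chr3:135201561-135201620, plus strand), EPHB2 (chr1:22908040-22908099, plus strand) and EPHB3 (chr3:184580489-184580548, plus strand). All code for the same 20 residues except EPHA3, which shares 19. Capitals numbered 14 in EPHA4, 13 in EPHA3 and 8 in EPHA7, against 14 in EPHB1, 16 in EPHB2 and 15 in EPHB3, so the classes met at 14.

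EPHA4 (chr2:221418027-221574202, minus strand), a receptor for ephrins of both classes, had 388 and 466 CPM in P-bodies and 125 and 151 CPM in cytoplasm (1.63 ± 0.12). EPHA7 (chr6:93240020-93419687, minus strand) had 272 and 254 CPM in P-bodies and 98.6 and 94.4 CPM in cytoplasm (1.45 ± 0.10). EPHA3 (chr3:89107621-89482134, plus strand) had 87.5 and 86.2 CPM in P-bodies and 40.3 and 41.9 CPM in cytoplasm (1.08 ± 0.14). For these receptors every P-body library was above every cytoplasm library, whereas EPHA2 (-0.06 ± 0.23) overlapped between fractions and EPHA5 (-0.52 ± 0.28) was not called.

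The EPHB genes stood the other way. EPHB2 had 309 and 252 CPM in P-bodies and 667 and 602 CPM in cytoplasm (-1.18 ± 0.10). EPHB3 had 24.3 and 33.8 CPM in P-bodies and 75.4 and 69.4 CPM in cytoplasm (-1.31 ± 0.18). EPHB4, best known from veins, had 7.17 and 4.85 CPM in P-bodies and 15.5 and 13.2 CPM in cytoplasm (-1.26 ± 0.33). EPHB1 was lower by less (-0.54 ± 0.12). No EPHB gene had a P-body library as high as a cytoplasm library. Their transmembrane ligands EFNB1 (-0.90 ± 0.11) and EFNB3 (-0.77 ± 0.10) were also lower in P-bodies, while EFNB2 was higher, with 77.7 and 98.0 CPM against 69.8 and 57.5 CPM (0.47 ± 0.15). Among the GPI-anchored ligands above 10 CPM, EFNA2 was lower (-0.89 ± 0.31), while EFNA3 (-0.56 ± 0.36) and EFNA5 (0.44 ± 0.28) were not called.

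Among members at 10 CPM or more, a secreted class 3 semaphorin had the highest log2 change after PRTG. SEMA3D (chr7:84995553-85187056, minus strand) had 31.0 and 37.3 CPM in P-bodies and 3.87 and 3.70 CPM in cytoplasm (3.17 ± 0.27). SEMA3A, the classic growth cone-collapsing semaphorin, was higher by less, with 48.8 and 43.3 CPM against 29.9 and 24.8 CPM (0.75 ± 0.18), and its call ended without cytoplasm library 2 (0.61). SEMA3F had 5.30 and 9.59 CPM in P-bodies and 20.9 and 22.9 CPM in cytoplasm (-1.55 ± 0.31). Within this class, then, SEMA3D and SEMA3A lay above and SEMA3F below, each without overlap.

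The 13 membrane-bound or anchored semaphorins of classes 4 to 7 included 10 called lower and 0 called higher, beside 14.1% and 14.6% of all genes tested. SEMA6C (chr1:151131685-151146631, minus strand), with the lowest log2 change among members at 10 CPM or more, had 34.9 and 28.9 CPM in P-bodies and 110 and 88.4 CPM in cytoplasm (-1.64 ± 0.16). SEMA4G had 8.16 and 17.6 CPM against 28.0 and 34.6 CPM (-1.27 ± 0.31). SEMA6B had 15.3 and 13.9 CPM against 36.7 and 30.8 CPM (-1.21 ± 0.22). Their P-body libraries were the lower ones in every case, as for the next 3 genes. SEMA5B had 45 and 37.3 CPM in P-bodies and 85.1 and 86.9 CPM in cytoplasm (-1.06 ± 0.15). SEMA4A had 7.06 and 11.6 CPM against 19.8 and 18.2 CPM (-1.02 ± 0.30), and its call ended without cytoplasm library 1 (-0.98) or 2 (-1.10). SEMA4C had 36.3 and 27.6 CPM against 65.0 and 63.5 CPM (-1.01 ± 0.17). The remaining genes of these classes ranged from -0.90 ± 0.13 in SEMA5A to 0.07 ± 0.12 in SEMA6D. Among them, the call of SEMA4B ended with DESeq2, with library size only and without either cytoplasm library.

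Plexins, the signalling receptors for semaphorins, were lower in P-bodies wherever they were measured above 10 CPM. Of the 9 plexins, 7 were called lower and 0 higher, beside 14.1% and 14.6% of all genes tested. PLXNB1 (chr3:48403854-48430086, minus strand), a receptor for SEMA4D, had 49.0 and 53.0 CPM in P-bodies and 156 and 151 CPM in cytoplasm (-1.59 ± 0.12). PLXNA3 had 132 and 113 CPM against 333 and 278 CPM (-1.32 ± 0.12). PLXNA1 had 125 and 107 CPM against 283 and 255 CPM (-1.21 ± 0.11). PLXNB2 was less even, with 111 and 56.0 CPM in P-bodies and 207 and 195 CPM in cytoplasm (-1.27 ± 0.22). PLXNA4 (-0.89 ± 0.10), PLXNA2 (-0.63 ± 0.08) and PLXNC1 (-0.60 ± 0.19) were lower by less than 1 log2 unit. The neuropilins, which bind class 3 semaphorins beside the A-type plexins, differed in direction, with 60.2 and 56.2 CPM against 28.6 and 36.8 CPM for NRP1 (0.83 ± 0.17) and 74.8 and 67.4 CPM against 89.0 and 95.3 CPM for NRP2 (-0.37 ± 0.13).

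In liver bud progenitors, a contrast that did not choose the set, most members were depleted. Here 7 of 70 members were enriched in P-bodies and 43 depleted, against 21.4% and 17.1% of the 21951 genes tested, and the median log2 change was -0.61 beside -0.09 over all genes tested. Of the 41 members with a mean of 10 CPM or more, 5 were enriched and 33 depleted, against 47.2% and 27.8% of all genes at that level, and their median was -0.60 beside 0.24. None of the 41 was higher by 1 log2 unit. PRTG was enriched, with 486 and 466 CPM in P-bodies and 318 and 308 CPM in cytoplasm (0.61 ± 0.06, adjusted p = 1.66e-14). SEMA3A rose from 43.0 and 35.4 CPM to 76.8 and 77.3 CPM (0.98 ± 0.10, adjusted p = 6.66e-13). EPHA7, with 59.7 and 48.9 CPM against 36.9 and 24.7 CPM (0.83 ± 0.13, adjusted p = 6.78e-08), SEMA3D, with 19.1 and 17.5 CPM against 9.81 and 11.0 CPM (0.81 ± 0.19, adjusted p = 0.00032), and UNC5D, with 71.1 and 72.5 CPM against 53.0 and 53.1 CPM (0.44 ± 0.10, adjusted p = 9.81e-05), were the other enriched members at that level. P-body libraries lay above cytoplasm libraries in each.

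Plexins made up 5 of the 10 members at 10 CPM or more that were depleted by at least 1 log2 unit without overlap in liver bud progenitors. PLXNA3 had 22.0 and 27.4 CPM in P-bodies and 75.3 and 89.9 CPM in cytoplasm (-1.74 ± 0.11, adjusted p = 7.2e-22). PLXNB1 had 19.7 and 25.2 CPM against 57 and 60.7 CPM (-1.39 ± 0.12, adjusted p = 6.64e-16). PLXNB2, with 33.1 and 37.3 CPM against 91.8 and 92.5 CPM (-1.39 ± 0.10, adjusted p = 6.55e-20), was depleted to the same degree. PLXNA1 had 54.6 and 64.9 CPM against 137 and 151 CPM (-1.27 ± 0.08, adjusted p = 4.85e-21), and PLXND1, the receptor of the vascular cue SEMA3E, had 21.2 and 23.1 CPM against 50.8 and 53.1 CPM (-1.23 ± 0.12, adjusted p = 1.14e-13).

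Some genes that were higher in the P-bodies of neurons were depleted in those of liver bud progenitors. SLIT3 had 6.39 and 5.28 CPM in P-bodies and 19.8 and 17.3 CPM in cytoplasm (-1.67 ± 0.22, adjusted p = 1.16e-09). EPHA4 had 16.8 and 16.0 CPM against 37.6 and 32.9 CPM (-1.10 ± 0.15, adjusted p = 1.99e-09). NRP1, with 21.8 and 17.9 CPM against 41.6 and 32.4 CPM (-0.90 ± 0.14, adjusted p = 2.39e-07), and EFNB2, with 76.4 and 77.8 CPM against 111 and 120 CPM (-0.59 ± 0.08, adjusted p = 7.18e-09), completed the 4 members called in opposite directions that way. These were 5.71% of the members, beside 0.815% of all 21461 genes tested in the 3 cell types. Such patterns contain the neuron contrast that chose the set, so nothing is read from their shares. The neuron call of EFNB2 ended without P-body library 2 (0.29) or cytoplasm library 2 (0.32), and that of NRP1 without cytoplasm library 1 (0.65). UNC5D was the single member called the other way round, which 1.63% of all genes were, and its call in liver bud progenitors ended in the fit of all human libraries (0.41, adjusted p = 0.06). Further depleted members with a change of at least 1 log2 unit were EPHB6, a kinase-dead EPH receptor, with 8.30 and 4.87 CPM against 14.1 and 15.8 CPM (-1.19 ± 0.23, adjusted p = 1.28e-05), SEMA5A, with 44.4 and 48.7 CPM against 97.8 and 101 CPM (-1.09 ± 0.09, adjusted p = 1.32e-16), and NRP2, with 74.9 and 83.6 CPM against 161 and 156 CPM (-1.0 ± 0.08, adjusted p = 6.96e-18). ROBO2 (-0.16 ± 0.17, adjusted p = 0.539) and ROBO1 (0.08 ± 0.06, adjusted p = 0.297) did not pass the test.

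In HEK293T cells, 16 members were enriched in P-bodies and 22 depleted, against 19.3% and 22.8% of the 21903 genes tested. The median log2 change of the members was -0.03, beside -0.01 over all genes tested, and of 31 members at 10 CPM or more, 14 were enriched and 13 depleted, against 44.2% and 38.3% of all genes at that level. PRTG had 380 and 395 CPM in P-bodies and 190 and 190 CPM in cytoplasm (1.03 ± 0.06, adjusted p = 3.58e-23). ROBO2 had 101 and 95.0 CPM against 37.3 and 43.7 CPM (1.27 ± 0.09, adjusted p = 4.33e-19). SEMA3A, with 31.4 and 33.1 CPM against 14.2 and 12.4 CPM (1.28 ± 0.14, adjusted p = 6.52e-12), and SEMA3D, with 50.4 and 57.4 CPM against 23.9 and 24.7 CPM (1.15 ± 0.11, adjusted p = 9.61e-14), were enriched about as strongly. SEMA4D, a transmembrane semaphorin of immune and neural cells, was enriched here, with 79.4 and 85.8 CPM against 40.0 and 41.4 CPM (1.02 ± 0.09, adjusted p = 4.74e-15). It was depleted in liver bud progenitors, with 49.2 and 51.8 CPM against 65.7 and 66.8 CPM (-0.39 ± 0.10, adjusted p = 0.000634).

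All 4 EPHA genes above 10 CPM in HEK293T were enriched, beside 44.2% of all genes at that level. Their changes ran from EPHA7, with 673 and 681 CPM in P-bodies and 390 and 365 CPM in cytoplasm (0.84 ± 0.05, adjusted p = 5.18e-21), to EPHA3, with 31.6 and 36.6 CPM against 28.2 and 27.7 CPM (0.29 ± 0.12, adjusted p = 0.0496). The EPHA3 call ended with library size only (0.16, adjusted p = 0.342), in the fit of all human libraries (0.41, adjusted p = 0.0655), without P-body library 2 (0.18, adjusted p = 0.432), without cytoplasm library 1 (0.33, adjusted p = 0.0557) and without cytoplasm library 2 (0.28, adjusted p = 0.113). EPHA6 (0.43 ± 0.12, adjusted p = 0.00246) lost its call without P-body library 1 (0.27, adjusted p = 0.162) and in the fit of all human libraries (0.56, adjusted p = 0.228). Of the 5 EPHB receptors, 2 were depleted and 3 not called, with 7.27 and 7.95 CPM against 14.4 and 17.2 CPM for EPHB2 (-1.05 ± 0.18, adjusted p = 8.58e-07) and 14.7 and 10.6 CPM against 23.7 and 28.0 CPM for EPHB4 (-1.04 ± 0.15, adjusted p = 3.94e-08). Depletion by at least 1 log2 unit was also found for EFNB3, with 8.37 and 8.12 CPM against 23.9 and 24.4 CPM (-1.55 ± 0.16, adjusted p = 7.19e-13), SEMA4G, with 11.5 and 8.24 CPM against 22.6 and 22.1 CPM (-1.19 ± 0.16, adjusted p = 4.95e-09), and ROBO3, with 8.98 and 5.57 CPM against 13.0 and 16.6 CPM (-1.03 ± 0.19, adjusted p = 5.79e-06). None of these overlapped between fractions. Plexins were depleted again, with 5 of 9 called lower and 0 higher, beside 22.8% and 19.3% of all genes tested.

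Set side by side, 5 members were called higher in all 3 cell types, namely PRTG, EPHA7 and the secreted semaphorins SEMA3A, SEMA3C and SEMA3D, of which SEMA3C was below 10 CPM in neurons. This was 7.14% of the members, beside 8.44% of all genes. In all 3 types 16 were called lower, among them PLXNA1, PLXNA3, PLXNB1 and PLXNB2, EPHB2 and EPHB4, ROBO3, NEO1 and UNC5B. These 16 were 22.9% of the members, beside 5.77% of all genes. Both patterns contain the neuron contrast that chose the set, so nothing is read from their shares. The RNA input differed between HEK293T and the other cells, so that kit and cell type cannot be told apart in these counts.

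**Figure D2:**
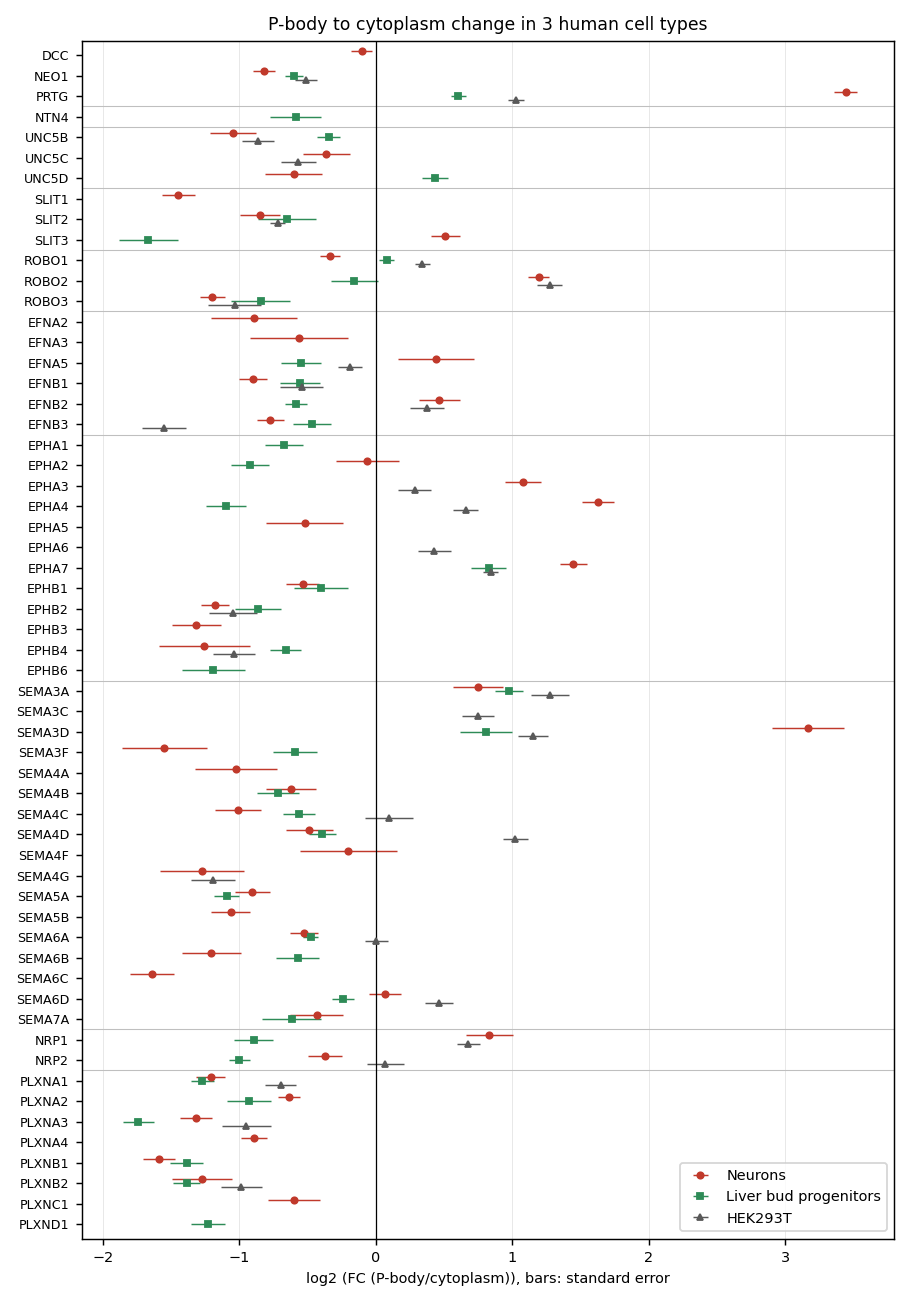
log2 (FC (P-body/cytoplasm)) of each member with at least 10 CPM, with standard errors, in neurons (circles), liver bud progenitors (squares) and HEK293T (triangles), grouped by family. Plexins lie left of 0 in each cell type, PRTG, EPHA7, SEMA3A and SEMA3D lie right of it, and SLIT3, EPHA4 and NRP1 lie at opposite sides in neurons and liver bud progenitors.

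The difference of the log2 changes between neurons and liver bud progenitors was fitted on their 8 libraries. As it contains the neuron contrast, it is given as values. Of 70 members, 12 passed the threshold as higher in neurons and 4 as lower, beside 9.21% and 8.5% of the 22268 genes tested. Differences were 2.83 ± 0.10 for PRTG, 2.72 ± 0.17 for EPHA4, 2.35 ± 0.32 for SEMA3D, 2.17 ± 0.19 for SLIT3, 1.72 ± 0.25 for NRP1 and 1.34 ± 0.13 for ROBO2. Of the genes with smaller differences, DCC had 1.26 ± 0.23 and EFNB2 1.04 ± 0.18, and at the low end UNC5D had -1.04 ± 0.19. In contrast, SEMA3A and the plexins above 10 CPM in both cell types did not pass this threshold.

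Levels were also compared between cell types in the cytoplasmic fraction. There 41 members were higher in neurons than in liver bud progenitors and 14 lower, against 26% and 25.8% of the 21900 genes tested. The median log2 change was 1.22, beside -0.16 over all genes tested. For these comparisons CPM were scaled over the 4 libraries concerned, and fewer cells of a type cannot be told apart from less RNA per cell. DCC had 658 and 662 CPM in neuron cytoplasm and 4.23 and 3.67 CPM in liver bud progenitor cytoplasm (7.39 ± 0.12, adjusted p = 2.54e-59). NEO1, by contrast, was present in both, with 567 and 588 CPM against 221 and 218 CPM (1.4 ± 0.08, adjusted p = 2.18e-27). SLIT1 had 178 and 156 CPM against 1.77 and 2.72 CPM (6.19 ± 0.17, adjusted p = 3.17e-46). The other SLIT genes were higher by less, SLIT2 with 81.2 and 73.9 CPM against 11.2 and 20.0 CPM (2.30 ± 0.15) and SLIT3 with 117 and 116 CPM against 18.4 and 16.2 CPM (2.75 ± 0.13).

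ROBO1, ROBO2 and ROBO3 were higher in neuron cytoplasm, while ROBO4, an endothelial member, was not called. ROBO3 had 699 and 622 CPM against 12.8 and 12.7 CPM (5.70 ± 0.11, adjusted p = 2.15e-56), ROBO2 had 490 and 477 CPM against 19.1 and 15.8 CPM (4.80 ± 0.10, adjusted p = 3.15e-52) and ROBO1 had 1231 and 1245 CPM against 388 and 374 CPM (1.70 ± 0.07, adjusted p = 4.6e-34). Of the UNC5 genes, UNC5C had 46.5 and 42.5 CPM against 3.96 and 4.02 CPM (3.47 ± 0.20) and UNC5A had 15.1 and 13.4 CPM against 6.14 and 7.33 CPM (1.07 ± 0.24), a call that ended in the fit of all human libraries (1.03). UNC5B (-0.61 ± 0.11) and UNC5D (-0.68 ± 0.13) were lower in neurons. The netrin NTN4 was lower too, with 5.50 and 9.82 CPM against 16.6 and 15.6 CPM (-1.08 ± 0.23).

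EPH receptors of both classes were higher in neuron cytoplasm. EPHA5 had 25.7 and 22.0 CPM against 0.819 and 0.237 CPM (5.51 ± 0.35) and EPHA3 had 43.5 and 45.2 CPM against 2.05 and 0.71 CPM (5.04 ± 0.25). EPHA4 had 135 and 163 CPM against 35.1 and 30.7 CPM (2.18 ± 0.11) and EPHA7 had 106 and 102 CPM against 34.4 and 23.1 CPM (1.87 ± 0.13). EPHB2 had 720 and 650 CPM against 26.1 and 21.9 CPM (4.84 ± 0.10), EPHB1 had 197 and 163 CPM against 16.0 and 12.7 CPM (3.66 ± 0.12) and EPHB3 had 81.3 and 74.9 CPM against 10.2 and 11.9 CPM (2.81 ± 0.15). EPHB4, at 16.7 and 14.2 CPM against 44.6 and 53.8 CPM (-1.67 ± 0.15), and EPHA1, an epithelial receptor with 0.102 and 0.216 CPM in neurons and 29.7 and 33.5 CPM in liver bud progenitors, were lower in neurons. Both neuron libraries of EPHA1 lay under the limit of detection of 3 counts. The ligands EFNB3, with 269 and 275 CPM against 28.2 and 31.9 CPM (3.17 ± 0.10), EFNB1, with 211 and 195 CPM against 28.2 and 29.4 CPM (2.81 ± 0.11), EFNA3, with 19.6 and 16.2 CPM against 3.96 and 3.19 CPM (2.33 ± 0.26), and EFNA2, with 17.5 and 17.2 CPM against 3.82 and 6.50 CPM (1.73 ± 0.24), were higher in neurons. EFNA5 was lower, with 11.6 and 15.6 CPM against 26.7 and 28.6 CPM (-1.02 ± 0.18).

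Plexins were higher in neuron cytoplasm with a single exception, as 8 of the 9 were called higher, beside 26% of all genes tested. PLXNA4 had 362 and 373 CPM against 7.50 and 4.85 CPM (5.91 ± 0.13) and PLXNA2 had 911 and 869 CPM against 25.1 and 24.7 CPM (5.16 ± 0.10). PLXNC1, with 36.3 and 42.7 CPM against 7.23 and 9.70 CPM (2.21 ± 0.18), PLXNA3, with 360 and 300 CPM against 70.1 and 84.1 CPM (2.09 ± 0.09), and PLXNB1, with 168 and 163 CPM against 53.1 and 56.8 CPM (1.59 ± 0.10), followed. PLXNB2 had 223 and 211 CPM against 85.5 and 86.5 CPM (1.33 ± 0.09) and PLXNA1 had 305 and 276 CPM against 128 and 142 CPM (1.11 ± 0.08). PLXND1, a plexin of endothelium, was the exception with 5.10 and 5.40 CPM against 47.3 and 49.7 CPM (-3.21 ± 0.18, adjusted p = 2.38e-26). The 3 markers of endothelium summed to 6.57 to 8.80 CPM in neuron cytoplasm and 18.1 to 20.3 CPM in liver bud progenitor cytoplasm, and their part in the PLXND1 result was not tested.

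Of the membrane-bound semaphorins, SEMA5B had 91.8 and 93.8 CPM against 6 and 6.03 CPM (3.94 ± 0.16), SEMA6C had 119 and 95.4 CPM against 11.9 and 12.8 CPM (3.12 ± 0.14) and SEMA4A had 21.4 and 19.6 CPM against 3.27 and 2.72 CPM (2.78 ± 0.25). SEMA7A, with 49.5 and 38.5 CPM against 12.8 and 12.5 CPM (1.80 ± 0.17), and SEMA4G, with 30.3 and 37.3 CPM against 9.96 and 9.70 CPM (1.78 ± 0.18), were higher by less. SEMA6A was the exception of this class, with 181 and 192 CPM against 451 and 449 CPM (-1.27 ± 0.08, adjusted p = 1.61e-24). NRP1 did not pass the test, with 30.9 and 39.7 CPM against 38.7 and 30.3 CPM (0.04 ± 0.15, adjusted p = 0.866), but with libraries scaled by size only it was lower in neurons by 0.35 log2 units.

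In P-bodies, 37 members were higher in neurons than in liver bud progenitors and 9 lower, against 18.4% and 22.7% of the 22166 genes tested. Members called in both the cytoplasm and the P-body comparison numbered 43, and 41 of them had the same direction in both. That share, 95.3%, was close to the 95.2% of all 7242 genes called in both comparisons. The 2 exceptions were PRTG and SEMA3D. PRTG had less RNA in neuron cytoplasm, with 100 and 99.0 CPM against 296 and 288 CPM (-1.55 ± 0.08, adjusted p = 2.45e-27), and more in neuron P-bodies, with 973 and 1053 CPM against 480 and 458 CPM (1.11 ± 0.07, adjusted p = 1.05e-06). SEMA3D had 4.18 and 3.99 CPM against 9.14 and 10.3 CPM in cytoplasm (-1.25 ± 0.29, adjusted p = 0.00012) and 31.0 and 37.9 CPM against 18.8 and 17.2 CPM in P-bodies (0.94 ± 0.20, adjusted p = 0.00415). For both genes the cell types did not overlap in either fraction, and the order of the cell types turned between fractions. These genes also had the highest P-body to cytoplasm ratios in neurons among members at 10 CPM or more. That ratio chose the set, so nothing is read from the turn.

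Receptors that neurons held in the cytoplasm were mostly found in their P-bodies at higher levels as well. DCC had 584 and 563 CPM in neuron P-bodies and 1.55 and 1.63 CPM in liver bud progenitor P-bodies (8.48 ± 0.12, adjusted p = 1.83e-10). ROBO2 had 1034 and 1031 CPM against 16.5 and 16.5 CPM (5.97 ± 0.09, adjusted p = 1.83e-10), EPHA4 had 387 and 474 CPM against 16.6 and 15.8 CPM (4.73 ± 0.13, adjusted p = 5.17e-09) and EPHA3 had 87.4 and 87.6 CPM against 0.332 and 0.916 CPM (7.08 ± 0.28, adjusted p = 4.84e-08). SLIT3 had 158 and 151 CPM against 6.31 and 5.19 CPM (4.75 ± 0.15, adjusted p = 1.32e-08) and NRP1, whose cytoplasmic level did not pass the test, had 60.2 and 57.1 CPM against 21.5 and 17.6 CPM (1.59 ± 0.17, adjusted p = 3.99e-05). Lower in neuron P-bodies were UNC5D, with 19.1 and 19.1 CPM against 70.2 and 71.3 CPM (-1.89 ± 0.15, adjusted p = 4.46e-06), SEMA6A, with 116 and 126 CPM against 336 and 345 CPM (-1.5 ± 0.09, adjusted p = 5.16e-07), and UNC5B, with 30.4 and 33.0 CPM against 85.1 and 92.5 CPM (-1.48 ± 0.13, adjusted p = 1.24e-05).

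**Figure D3:**
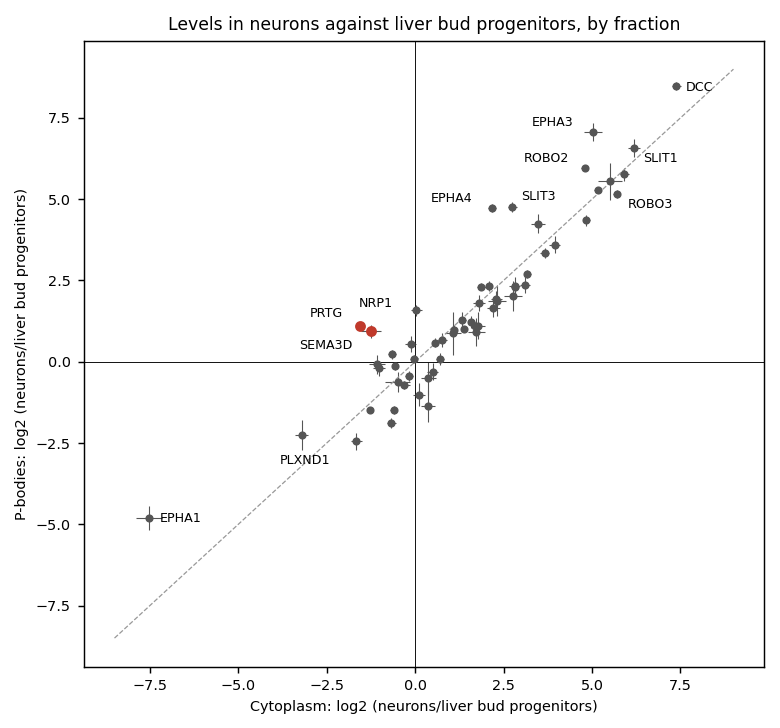
log2 change from liver bud progenitors to neurons in the cytoplasm (horizontal axis) and in P-bodies (vertical axis) of members with at least 10 CPM in either comparison, with standard errors, and a dashed line of equal change. The red points, PRTG and SEMA3D, lie left of 0 on the horizontal axis and above 0 on the vertical axis.

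Base composition was a feature that the choice of the set did not use. GC content was taken from the longest transcript of each gene in GENCODE 44, which was found for 70 of 70 members, and it need not be the transcript that the cells used. The 6 members higher in neuron P-bodies by at least 1 log2 unit had a median GC content of 38.0%, with a range of 34.7% to 44.8%. The 17 members lower by as much had a median of 61.4% and a range of 56.0% to 69.7%, so the groups did not overlap, and the other 29 members lay between 36.7% and 64.3%. Across the 52 members, Spearman's rho between GC content and log2 change was -0.778 in neurons. It was -0.669 across the 8176 genes at 10 CPM or more with a transcript, so that a fall with GC content was not particular to guidance genes. In liver bud progenitors rho was -0.574 over 41 members and -0.704 over all such genes, and in HEK293T it was -0.773 over 31 members and -0.538 over all. At the third codon position the 6 higher members had 40.5% to 55.2% G or C and the 17 lower members 64.3% to 86.8%. All points of a panel share the same libraries, and genes are not independent replicates.

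Length differed less clearly between the sides. In neurons, rho of the members' log2 change was 0.464 with the length of the 3′ UTR, -0.187 with coding length and 0.198 with transcript length, and over all genes at that level these values were 0.208, 0.084 and 0.156. Within families the order was mixed. EPHA3, EPHA4 and EPHA7 had 40.2%, 44.8% and 37.5% GC, against 52.4%, 56.0% and 62.2% in EPHB1, EPHB2 and EPHB3. EPHA5, whose log2 change was below 0, had 38.8% GC. SLIT3, the SLIT gene that was higher in P-bodies, had 53.9% GC, between SLIT2 with 48.7% and SLIT1 with 59.4%.

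**Figure D4:**
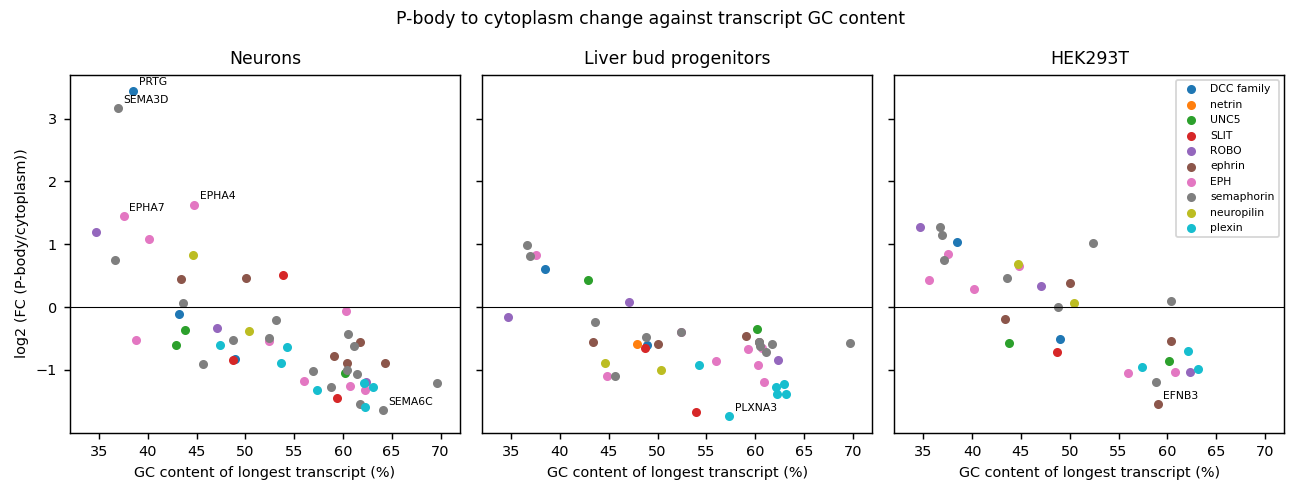
log2 (FC (P-body/cytoplasm)) against the GC content (%) of the longest transcript for members with at least 10 CPM in neurons, liver bud progenitors and HEK293T, coloured by family. Points fall from upper left to lower right in each panel, with Spearman's rho of -0.778, -0.574 and -0.773.

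The genes that act with these receptors were described from a list of 70 co-receptors, partners and cytoplasmic effectors. In neurons, 12 were called higher (17.1%) and 31 lower (44.3%) in P-bodies, against 14.6% and 14.1% of all genes tested. The partners' median change was -0.34 on the log2 scale, beside 0.19 over all genes tested. Lower by at least 1 log2 unit at 50 CPM or more were the collapsin response mediators DPYSL4, with 82.6 and 71.5 CPM against 221 and 189 CPM (-1.41 ± 0.12), and DPYSL5, with 486 and 467 CPM in P-bodies (-1.16 ± 0.08), the kinase SRC (-1.11 ± 0.16) and the axonal adhesion molecule CNTN2, with 351 and 312 CPM against 693 and 682 CPM (-1.05 ± 0.09). By the same rule 3 partners were higher in P-bodies, among them the protease ADAM10, which cleaves ephrins among other proteins (1.05 ± 0.12).

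In liver bud progenitors 21 of these partners were called higher (30%) and 25 lower (35.7%) in P-bodies, against 21.4% and 17.1% of all genes tested. PTPN11 (1.04 ± 0.06, adjusted p = 2.95e-25) and PAK3 (1.05 ± 0.08, adjusted p = 2.09e-18) were enriched and MICAL3 (-1.12 ± 0.10, adjusted p = 3.47e-16), of the MICAL family of actin-oxidizing enzymes, was depleted. In HEK293T 21 were called higher (30%) and 17 lower (24.3%), against 19.3% and 22.8% of all genes tested. CHN2 (1.69 ± 0.09, adjusted p = 4.03e-24), NCK1 (1.24 ± 0.09, adjusted p = 3.18e-19) and ABL2 (1.09 ± 0.06, adjusted p = 3.08e-25) were enriched there. RHOA (-1.76 ± 0.06, adjusted p = 2.54e-33), DPYSL5 (-1.75 ± 0.10, adjusted p = 1.4e-22) and CFL1 (-1.02 ± 0.07, adjusted p = 2.18e-19) were depleted. In the cytoplasm 45 of the 70 partners were higher in neurons than in liver bud progenitors (64.3%) and 12 lower (17.1%). Among all genes tested these shares were 26% and 25.8%. The largest changes among those at 50 CPM or more were those of CNTN2, with 749 and 736 CPM against 3 and 2.48 CPM (8.08 ± 0.13, adjusted p = 1.06e-60), and DPYSL5, with 6 and 6.62 CPM in liver bud progenitors (7.50 ± 0.11, adjusted p = 3.19e-62).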

How the data were processed

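P-body-seq compared sorted GFP-LSM14A particles with presorting cytoplasm, 2 libraries for each fraction and cell type. The deposited hg38 table holds raw read counts, with 1 line for each gene symbol. Per the study's methods, the nf-core RNA-seq pipeline with salmon and the refGene annotation served snapTotal-seq, and hisat2 with featureCounts served Smart-seq. Which of them made the polyA RNA columns is not stated, and the strand setting of the counting is not given in the sources used here. No gene summed to under 10 reads, the minimum of the authors. They also deposited DESeq2 fold changes and p-values and mouse tables, which were not used.

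Groups came from the labels. Counts were fitted with edgeR 4.0.16 (quasi-likelihood test) in R 4.3.3 on the libraries of each comparison, with TMM factors, no covariate, two-sided tests, Benjamini-Hochberg adjustment over all genes tested and a threshold of 0.05. Genes with 0 counts in all libraries compared were left out. The scripts were tested on simulated data. Members and lists were chosen with earlier results of these data known. Members with a mean of 10 CPM or more may be named, those at 1 log2 unit or more without overlap with their library values, and PRTG, DCC, NEO1, ROBO1 to ROBO3 and SLIT1 to SLIT3 in neurons whatever their values. P-body values between cell types are printed for the leading members, since the same libraries appear in the comparisons of fractions. Genes of the partner list are named at 50 CPM or more and 1 log2 unit, with the 2 leading ones in cytoplasm. Some genes that meet this rule are not reported here. Sequences and gene positions came from GENCODE 44 (hg38). Coding stretches were searched without gaps.

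Alternatives were DESeq2 1.42.0, RLE factors, library size only, filterByExpr, a fit of all 12 human libraries, a replicate block, leaving out ribosomal RNA genes and leaving out each library. The labels say nothing of separate cultures, so p-values measure the spread between these libraries. Depth is stated with the results, and detection limits cover counting error only, as PCR copies cannot be told from separate molecules.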

Additional observations from a re-analysis of the deposited data

Results flagged for a closer look

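P-body enrichment differed between neurons and liver bud progenitors, by the interaction term fitted in edgeR over their 8 libraries, for 16 members. The test contains the neuron contrast that chose the set, so it is no independent evidence. Log2 (FC (P-body/cytoplasm)) was higher in neurons by 2.89 for EPHA1, 2.83 for PRTG, 2.72 for EPHA4, 2.35 for SEMA3D, 2.2 for EPHA3, 2.17 for SLIT3, 1.72 for NRP1, 1.34 for ROBO2, 1.26 for DCC, 1.04 for EFNB2, 0.987 for EFNA5 and 0.62 for NRP2. It was lower in neurons, with a difference of -1.55 for EPHB6, -1.04 for UNC5D, -0.711 for UNC5B and -0.42 for ROBO1. EPHA1 had a mean of 0.44 CPM in neurons, and EPHA3 1.06 CPM and DCC 2.92 CPM in liver bud progenitors, so 1 side of those differences rests on few counts. PRTG, EPHA4, SEMA3D, SLIT3, NRP1, ROBO2, DCC, EFNB2 and UNC5D kept their call in all 15 alternatives run. The calls of the other 7 ended in at least 1 alternative.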

How the results depend on the processing

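Counts of members called stayed within 1.5 times of the reported ones in the comparisons of fractions and of cell types under every alternative run. The exception was the difference between neurons and liver bud progenitors. There, scaling by library size only gave 21 members higher in neurons and 1 lower, and the fit of all human libraries gave 7 lower, against 12 and 4 as reported. Deviations of same-numbered libraries correlated at -0.028 in HEK293T, -0.002 in liver bud progenitors and 0.017 in neurons, so no shared deviation was seen. This cannot show whether same-numbered P-body and cytoplasm libraries came from the same lysate. With the replicate block 7 were lower, and EPHA3 in HEK293T lost its call (0.28, adjusted p = 0.0837). Leaving out 1 library gave 9 to 16 higher and 2 to 17 lower. The count of lower calls was 17 without neuron P-body library 1, 12 without neuron P-body library 2 and 2 without neuron cytoplasm library 1, and a lone library was then assumed to vary like the others. The cause was not tested. PLXNB2 turned from 0.11 to -0.56 in that difference without neuron P-body library 1 (0.40 without library 2), and NRP1 turned from 0.04 to -0.35 between the cytoplasms with library size only. The members' median in HEK293T lay on either side of 0, from -0.16 with library size only to 0.10 with all human libraries. Library size only moved the median of all genes by 0.165 in neurons, -0.184 in liver bud progenitors and -0.128 in HEK293T. In neurons the calls of EFNA2, NRP2, PLXNC1, SEMA4D and UNC5D ended with DESeq2, RLE factors, library size only and filterByExpr.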
